A study of Caenorhabditis elegans with 2 samples.

Results

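The annotation of the ce11 assembly of Caenorhabditis elegans holds 336 genes of biotype tRNA on the 5 autosomes, out of 634 tRNA genes in all and 40868 autosomal genes of every biotype. All 336 were taken, whatever was measured at them, and each was scored by the peak summits that lay within 500 bp of it. The data are chromatin immunoprecipitation sequencing (ChIP-seq) of the protein made by Y53F4B.3 (pole-4), in strain RW12270, where CRISPR editing had put TY1, EGFP and 3xFLAG into the gene itself on chromosome II. An antibody against GFP was used on young adult animals aged 64 h, grown from larvae that had been starved to bring them into step. The single group had 2 biological replicates. Whole organisms were used, so peaks of all tissues are merged, and no animals without the tag were analysed here. Thus the comparisons are between genes and between the 2 replicates, not between conditions. For each list, candidates ranked by the irreproducible discovery rate (IDR, an estimate of how likely a peak is to be noise that does not repeat) came with a thresholded list, whose peaks are called listed below. The larger set draws on both replicates and is the source of every count that names no other list.

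Transfer RNA genes are transcribed by RNA polymerase III from a promoter that lies inside the gene. Its A box and B box are read by the factor TFIIIC, which brings in TFIIIB and then the polymerase, and transcription ends at a run of T just after the gene. Each tRNA carries 1 amino acid, its isotype, and reads codons through its anticodon. The worm genome holds many of these genes as identical copies, often inside introns of protein-coding genes. Y53F4B.3 carries the name pole-4, after a small subunit with a histone fold in the DNA polymerase that copies the leading strand, polymerase epsilon.

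The genes that carry the results below belong to families of identical sequence, and a few are shown here because listed and unlisted genes can share every base. The sequences were read from the RefSeq genome of the WBcel235 (ce11) build, on the gene strand from 5′ to 3′. Capitals mark the A box near the start of the gene and, further on, the B-box core GTTCNANNC. The proline family with anticodon TGG had a listed summit at 5 of its 11 autosomal copies.
Pro-TGG: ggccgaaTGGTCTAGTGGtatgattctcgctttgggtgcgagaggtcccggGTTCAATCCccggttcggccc
The lysine family with anticodon TTT had one at 4 of 9 copies.
Lys-TTT: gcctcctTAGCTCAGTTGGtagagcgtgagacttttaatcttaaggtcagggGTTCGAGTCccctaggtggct
In the threonine family with anticodon AGT, 0 of 8 copies had one, although both boxes are present.
Thr-AGT: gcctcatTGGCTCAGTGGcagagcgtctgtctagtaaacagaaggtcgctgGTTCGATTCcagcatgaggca
The glutamine family with anticodon TTG is shown because only 1 of its 6 annotated autosomal copies had a candidate summit in the larger set. Of the others, all but Y49E10.t1 had an unlisted candidate in at least 1 replicate.
Gln-TTG: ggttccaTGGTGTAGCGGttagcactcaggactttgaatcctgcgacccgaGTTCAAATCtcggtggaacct
C14B9.t2, a leucine gene whose sequence occurs once in the genome and holds an intron, was listed in the larger set and in both replicates.
Leu-CAA: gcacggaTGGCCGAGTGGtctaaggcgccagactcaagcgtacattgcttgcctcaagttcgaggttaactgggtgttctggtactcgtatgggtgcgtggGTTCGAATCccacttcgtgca
The last pair shows F44A2.t1, another listed gene with a sequence of its own, beside the shared alanine sequence with anticodon AGC, which had a listed summit at 2 of 8 autosomal copies.
Ala-AGC: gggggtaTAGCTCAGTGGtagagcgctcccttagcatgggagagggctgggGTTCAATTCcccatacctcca
Ala-CGC: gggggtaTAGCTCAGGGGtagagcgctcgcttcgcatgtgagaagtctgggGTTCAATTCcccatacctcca
Counted from 1 at the 5′ end, with the base of the shared sequence first, the pair differs by T16G, C29G, A33C, G39T, G44A and G46T.

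The tRNA genes were near peaks far more often than autosomal genes at large. A listed summit lay within 500 bp of 63 of the 336 genes, 18.8% with a 95% interval of 14.7 to 23.3% (exact Clopper-Pearson, which covers counting error only). The same share over all 40868 autosomal genes was 1.68%. It was 2.28% for protein-coding genes, although their greater length gives them wider windows. Small nucleolar RNA genes, which guide chemical changes on ribosomal RNA, came close to the tRNA genes with 47 of 313, or 15%. In replicate 2 alone the order was the other way, with 28 of 313 (8.95%) against 16 of 336 tRNA genes (4.76%), and in replicate 1 it was 31 (9.90%) against 40 (11.9%). Small nuclear RNA genes had a listed summit at 16 of 126, or 12.7% (7.44 to 19.8%), which also overlaps the tRNA interval. Their shares were 11.1% in replicate 1 and 7.94% in replicate 2. The 276 tRNA genes of the X chromosome had a listed summit at 70, or 25.4% (20.3 to 30.9%). That interval overlaps the autosomal one, and the difference was not tested.

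Most of the other tRNA genes had a weaker candidate. Any ranked candidate, listed or not, lay within 500 bp of 235 of the 336 genes (69.9%), against 18.8% of all autosomal genes. The conservative set, which the authors drew from the same replicates, had a listed summit at 66 tRNA genes (19.6%), against 1.74% of all autosomal genes, and 50 of these were also among the 63. Over the 4 thresholded lists together, 84 genes were listed at least once and 252 never. No candidate of any ranked list lay near 37 genes. The B-box core was held by 31 of those 37, against 319 of all 336 genes. In introns lay 21 of the 37, against 188 of the 336. A sequence that occurs once was found for 19 of the 37, against 85 of the 336.

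Replicate 1 contributed more listed tRNA genes than replicate 2. It had a listed summit at 40 of the 336 (11.9%, 8.64 to 15.9%), against 1.10% of all autosomal genes. Replicate 2 had one at 16 (4.76%, 2.75 to 7.62%), against 0.781%. Both replicates listed 10 genes, and the share of all autosomal genes listed in both was 0.475%. Any ranked candidate lay near 268 tRNA genes in replicate 1 (79.8%) and 271 in replicate 2 (80.7%). For autosomal protein-coding genes the shares were 52.3% and 63.9%. The ranked lists held 15646 and 22983 autosomal candidates, so similar tRNA counts stand against a larger background in replicate 2. Read depth is not known for either library, and its part in the difference between the replicates was not tested.

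Candidates near tRNA genes were listed more often than other candidates of the same list. In the larger set, 231 candidates had their summit within 500 bp of an autosomal tRNA gene and 56 of them were listed, which is 24.2% (18.9 to 30.3%). The share over all autosomal candidates was 4.79%, and over the 8040 away from tRNA genes it was 4.23%. Listing is not the same as an IDR of 0.01 or less: the thresholded list of the larger set omits 107 autosomal candidates that meet this limit, none of them near a tRNA gene. With these included, 5.56% of the candidates away from tRNA genes met the limit. In the conservative set it was 60 of 259 candidates, or 23.2%, against 3.43% of all. Replicate 1 listed 35 of 259, or 13.5%, against 1.55%. Replicate 2 listed 13 of 274, or 4.74%, against 0.957%, so the direction was the same in both replicates and the size was not. Summits near tRNA genes made up 14.1% of the listed autosomal summits in the larger set, 14.5% in replicate 1 and 5.91% in replicate 2.

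The tRNA peaks were of middling strength. The signal value is the score that the authors' peak caller gave, and it can be compared only within a list. In the larger set the 56 listed summits near tRNA genes had a median signal of 96.49 and a highest of 144.5, whereas the 340 listed elsewhere on the autosomes had a median of 107.3 and reached 681.9. Their median IDR was 0.00191, against 0.000617 for the others. Below the threshold the order turned around. The 175 unlisted candidates near tRNA genes had a median signal of 60.2 against 41.78 for other unlisted candidates, and sat at the 86.4th percentile of the ranking by signal against the 47.0th.

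Many candidates near tRNA genes sat close to the limit of 0.01. At an IDR of 0.001 or less stood 10.4% of the near-tRNA candidates and 3.52% of the others. At 0.05 or less the shares were 44.6% and 8.11%. Among the top 5% of candidates by signal, 43 lay near tRNA genes, and among the top 10%, 113 did, which is 48.9% of all that lay near such genes. Candidates just outside the limit included those at the leucine gene T14B4.t1 (IDR 0.0111, signal 95.96) and the cysteine gene F53F8.t1 (0.0112, 71.91). Those just inside were at the glutamine gene B0228.t1 (0.00969, 81.29), the aspartate gene K02D7.t1 (0.00803, 79.54) and the lysine gene ZK994.t1 (0.00784, 87.05). These places hold for the larger set only. In the conservative set T14B4.t1 was listed, at an IDR of 0.00128, and B0228.t1 was not, at 0.0182. K02D7.t1 was listed there too (0.00648).

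**Figure D1:**
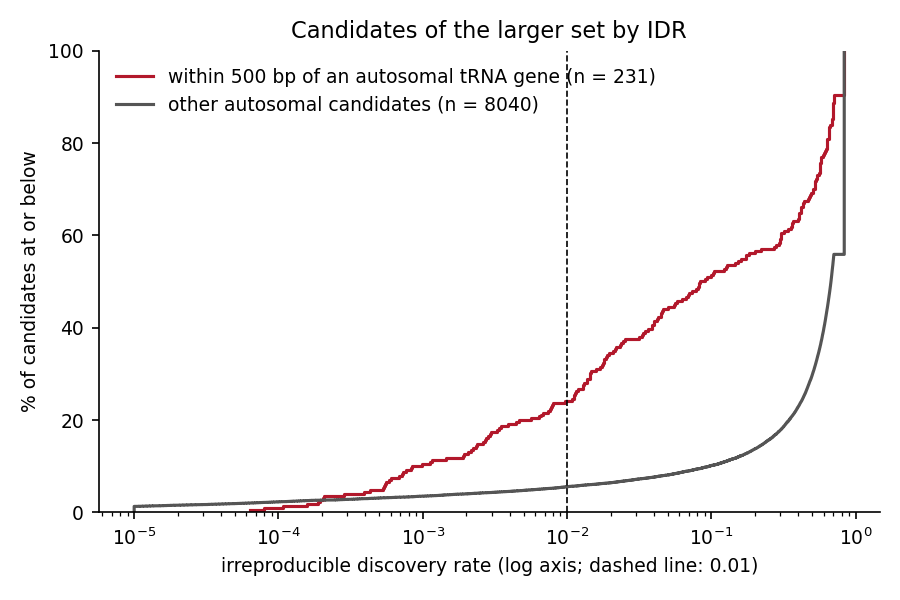
Share of ranked candidates of the larger set at or below each irreproducible discovery rate (log axis), for the 231 near autosomal tRNA genes (red) and the 8040 others (grey), with the limit of 0.01 as a dashed line. The curves cross near the left end and lie at 44.6% and 8.11% at 0.05.

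Peak summits fell on the tRNA gene itself. Of the 56 listed summits, 39 (69.6%, 55.9 to 81.2%) lay between the first and last base of the nearest tRNA gene, 14 lay upstream and 3 downstream. Positions were counted from 0 at the first base on the gene strand, where a median gene is 72 bp long. The median summit stood at 25 bp, with quartiles of 0 and 43.25 bp. This is past the A box, which starts at base 8 in the sequences shown above, and before the B-box core, which starts at base 52 or 53 in the genes of 72 or 73 bp. The 175 unlisted candidates had the same centre and more spread, with 100 (57.1%) inside and a median of 26 bp.

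The median listed summit lay within the span of a tRNA gene in both replicates. The quartiles were wider in replicate 2, at -19 and 37 bp, than in replicate 1, at 1 and 33.5 bp. In replicate 1, 27 of 35 listed summits (77.1%) were inside the gene with a median of 19 bp. Replicate 2 had 7 of 13 inside (53.8%, 25.1 to 80.8%) with a median of 10 bp. Where both replicates had a candidate at the same gene, which was so for 242 genes, the summits lay a median of 35 bp apart, and 152 pairs lay within 50 bp. At the 10 genes listed in both, the median distance was 12 bp. All listed peaks near tRNA genes had 1 width per list, 260 bp, or 236 bp in replicate 2, so a peak is longer than a tRNA gene and its width carries no information about the gene.

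**Figure D2:**
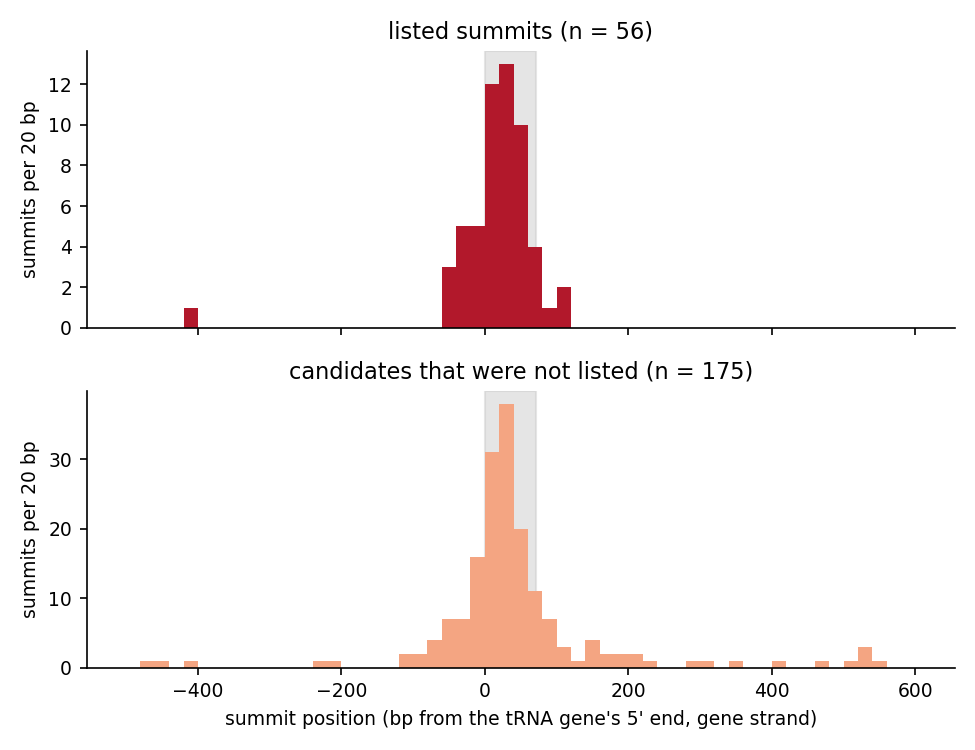
Summit positions of the larger set in bins of 20 bp, in bp from the 5′ end of the nearest tRNA gene on the gene strand, for 56 listed summits (top) and 175 unlisted candidates (bottom); the shaded band spans a gene of median length. Both distributions peak inside the band, with medians of 25 and 26 bp.

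The internal promoter words were also measured around the summits. The B-box core GTTCNANNC was present on the gene strand in 319 of the 336 genes, and a longer form, the core with G as the fifth base and flanked by G before and C after, in 217 (64.6%). Within 50 bp of the summit, on either strand, the longer form was found at 22 of the 56 listed near-tRNA summits (39.3%) and at 32% of the unlisted ones. It was found at 1.76% of other listed summits, 0.506% of other unlisted ones and 0.161% of all autosomal windows of 101 bp. Since the word is part of most tRNA genes, its share at these summits is not independent of their position.

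Few tRNA genes lacked a box, and their listed shares were low but imprecise. A listed summit was found at 62 of the 319 genes with the B-box core (19.4%, 15.2 to 24.2%) and at 1 of the 17 without it (5.88%, 0.149 to 28.7%). For the A box, the counts were 61 of 305 genes with it (20%, 15.7 to 24.9%) and 2 of 31 without it (6.45%, 0.791 to 21.4%). Both pairs of intervals overlap. The longer B-box form did not separate the genes, with 38 of 217 (17.5%) listed among those that hold it and 25 of 119 (21.0%) among the rest. The genes without the A box had a median of 1 genome copy against 10 for the others, and which of these features goes with the peaks was not tested. The terminator hardly varied: 332 genes had a run of 4 T within 40 bp after the end, starting at a median of base 5.

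**Figure D3:**
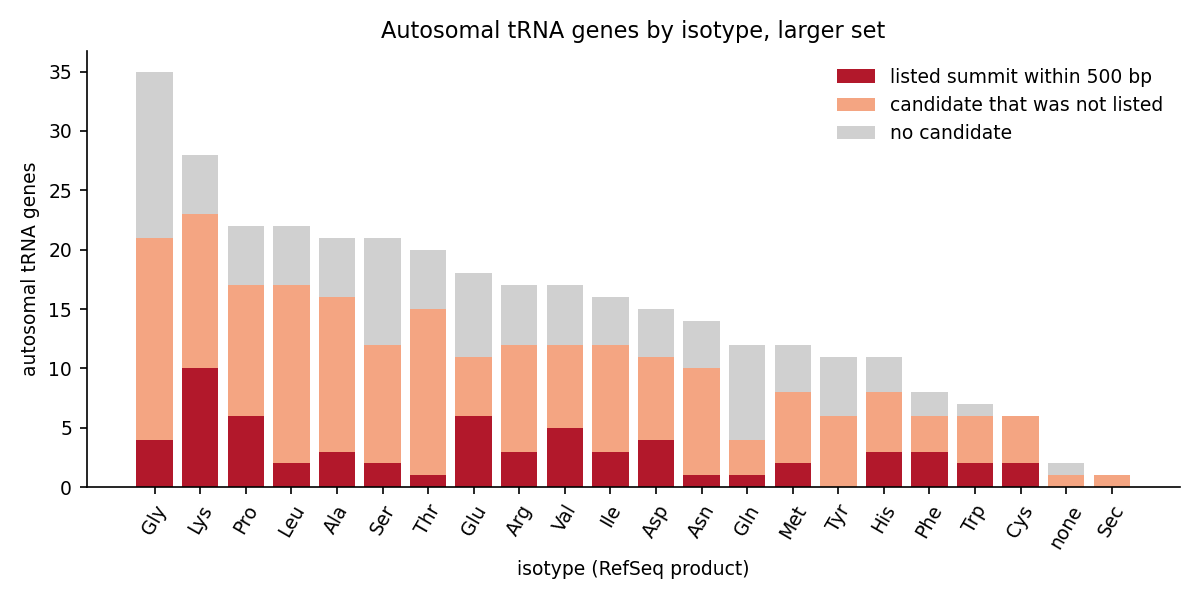
Number of autosomal tRNA genes of each isotype (RefSeq product), split into genes with a listed summit within 500 bp, genes with only an unlisted candidate, and genes with none, in the larger set. Lysine has the most listed genes, 10 of 28, while glycine, the most numerous isotype, has 4 of 35 and tyrosine 0 of 11.

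Isotypes differed in how many of their genes were listed, though each is small. An isotype was given by RefSeq for 334 genes and an anticodon could be placed in 327, with 47 combinations of both. Lysine genes led by number with 10 of 28 listed (35.7%, 18.6 to 55.9%). Glutamate had 6 of 18 (33.3%), proline 6 of 22 (27.3%), phenylalanine 3 of 8 and valine 5 of 17. At the low end were tyrosine with 0 of 11, threonine with 1 of 20, asparagine with 1 of 14, glutamine with 1 of 12, leucine with 2 of 22 and serine with 2 of 21. The interval for tyrosine reached 28.5% and that for threonine 24.9%, so both still overlap those of lysine. The median number of genome copies was 25 for lysine, 15 for glutamate and 14 for proline genes, against 1 for tyrosine, 2.5 for leucine and 3 for serine. Not all isotypes followed this, with 18 for asparagine, 10.5 for glutamine and 9 for threonine, and 5 for valine. The part of copy number in the order of the isotypes was not tested.

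The order of the isotypes was not the same on the X chromosome. Lysine had 6 of 18 listed there and glutamate 6 of 23, both high again. Leucine, however, had 9 of 17, asparagine 4 of 6 and glycine 9 of 20, against 4 of 35 glycine genes on the autosomes. Glutamine had 0 of 15 and isoleucine 0 of 13. The difference between the chromosomes was not tested for any isotype.

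Within an isotype the anticodons varied too. Glutamate genes with anticodon CTC had 4 of 9 listed and those with TTC 2 of 9. Both lysine anticodons were high, with 6 of 18 for CTT and 4 of 10 for TTT, and all 6 listed proline genes had the anticodon TGG (6 of 16). Leucine genes with AAG had 0 of 10 listed although 9 of them had a candidate, of which the family of 7 identical genes had candidates at all 7. Threonine genes with AGT had 0 of 10 listed and 8 with a candidate. With 0 of 10, the exact interval reaches 30.8%. The 3 glycine genes with CCC, all in introns of pash-1, which encodes a partner of the microRNA processing enzyme, had no candidate in any list.

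Signal ranges of the isotypes overlapped widely. In the larger set the candidates at lysine genes ran from 35.96 through a median of 79.1 to 142.4. Those at leucine genes ran from 46.33 through 68.03 to 114 and those at threonine genes from 34.16 through 60.61 to 114.1. Tyrosine candidates ran from 33.55 through 61.64 to 75.48, so that the strongest of them, at ZK1067.t1, was below the median at lysine genes. All 11 tyrosine genes carry an intron inside the tRNA, as do 4 leucine and 2 isoleucine genes, and 2 of these 17 genes were listed.

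Genes with many identical copies were listed more often. Of the 85 genes whose sequence occurs once in the genome, 6 were listed (7.06%, 2.63 to 14.7%). The share was 16.1% for 2 to 9 copies (14 of 87), 20.9% for 10 to 19 copies (19 of 91) and 32.9% for 20 or more (24 of 73, 22.3 to 44.9%). The share of genes with any candidate varied less, at 56.5%, 70.1%, 76.9% and 76.7%. The order held for listed genes in replicate 1, with 4, 7, 12 and 17 genes in the 4 classes, and in replicate 2, with 2, 3, 4 and 7. Families with 20 or more copies differed among themselves. The glycine family with anticodon TCC, with 29 copies the largest, had 3 of 18 autosomal genes listed. Lysine CTT had 6 of 15, proline TGG 5 of 11 and aspartate GTC 4 of 11. Isoleucine AAT had 2 of 9 and glutamate CTC 4 of 8. The part of single families in the order was not tested.

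The sources used here do not say how the authors treated reads that match several places, and the part of such reads in this order was not tested. With 50 bp of flank on each side all 336 sequences occur once as a whole, which does not say how much of each is also found elsewhere. The percentage of 24-base words within 130 bp found at least 5 times over the genome was alike in listed genes (median 23.1%), genes with a candidate only (23.1%) and genes with none (21.8%). In the same classes, the median number of copies was 14, 9 and 4. Single-copy genes also lacked the B-box core more often, in 8 of 85 against 9 of 251 multi-copy genes. Among genes with the core alone, 6 of 77 single-copy and 56 of 242 multi-copy genes were listed.

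**Figure D4:**
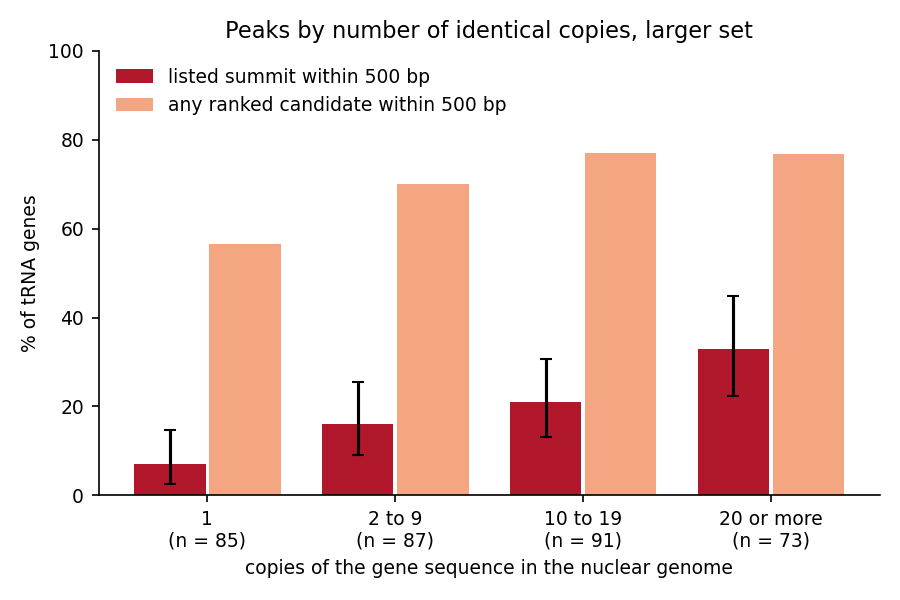
Share of autosomal tRNA genes with a listed summit (red, with exact 95% intervals) and with any ranked candidate (orange) within 500 bp in the larger set, by how often the gene sequence occurs in the nuclear genome. Listed shares run from 7.06% for single-copy genes to 32.9% for genes with 20 or more copies.

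Identical genes were not alike in their peaks. There were 43 families with 2 or more identical autosomal members, holding 242 genes. In 23 families some members were listed and others not, in 19 none was, and in 1 every member was. Of the 23 families with 5 or more autosomal members, 6 had no listed member, and these held 39 genes. Listed and unlisted members of these 23 families have the same sequence from the first to the last base of the gene.

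The lysine family with anticodon TTT shows the range. K04C2.t3 and T23F1.t1 had larger-set signals of 142.4 and 136.5, ZK994.t2 had 118.5 and ZK994.t1 had 87.05, all listed. Of the identical unlisted genes, F49C5.t4 had 82.84 (IDR 0.018), C09B9.t1 had 76.69 (0.0137), Y70C5A.t1 had 74.12 (0.056) and W07G4.t1 had 53.44 (0.357). F18C5.t1 had no candidate in the larger set. The last 5 genes lie in introns, as do K04C2.t3, ZK994.t1 and ZK994.t2, and T23F1.t1 is intergenic.

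In the proline family with anticodon TGG, summits shared with a neighbour made part of the count. Its 5 listed genes include W09D6.t1 and W09D6.t2, which lie 107 bp apart and share 1 summit, at 38 bp inside W09D6.t2 and at -146 bp from W09D6.t1. T23F1.t2 shares its summit with the lysine gene T23F1.t1, 66 bp away, and T22F3.t1 shares one with T22F3.t4, at -112 bp from the former and at -6 bp from the latter. Only F02H6.t1, with a signal of 81.05 and a summit at 43 bp, had one to itself. The 6 unlisted members ranged from no candidate of the larger set at R11G10.t2 and Y71H2AM.t1 to a signal of 66.45 at ZK970.t1.

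The glutamine count also depended on the annotation. B0228.t1, the single listed glutamine gene, has a full sequence that occurs once, but without 5 bases at each end it occurs 16 times. Its A box starts at base 11, against base 8 in the shared sequence, so its annotated ends are shifted, and with it 1 of 7 copies was listed. In all, 6 of the 85 single-copy genes occurred more than once when trimmed this way. Counted on the trimmed sequence, 5 of 79 single-copy genes (6.33%) and 58 of 257 multi-copy genes (22.6%) were listed, close to the first counts.

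Intron and intergenic tRNA genes did not differ beyond their intervals. Introns of protein-coding genes held 188 of the 336, of which 32 were listed (17%, 11.9 to 23.2%). Of the 139 intergenic genes 30 were listed (21.6%, 15.1 to 29.4%), and of the 9 that overlap an exon, 1 was. Orientation within the host did not separate the genes either, with 19 of 111 listed on the same strand and 13 of 77 on the opposite strand. Replicate 1 had 22 intron and 18 intergenic genes listed, replicate 2 had 11 and 5. The order of the shares turned in the conservative set, where 20.74% of intron and 18.71% of intergenic genes were listed.

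Genes close to another tRNA gene had a somewhat higher listed share, part of which came from shared summits. A neighbour within 2000 bp was present for 118 genes, of which 28 were listed (23.7%, 16.4 to 32.4%), against 35 of 218 lone genes (16.1%, 11.4 to 21.6%). These intervals overlap, and clustered genes had a median of 14.5 copies against 7 for lone ones. The 118 genes made 53 clusters, of which 19 held a listed gene and 9 held at least 2. Of the 56 listed summits, 7 lay within 500 bp of a pair of tRNA genes, and each pair counts as 2 genes above. With each summit given to its nearest tRNA gene only, 17.8% of clustered and 16.06% of lone genes were listed. Genes within 500 bp of the start of a protein-coding gene had 18 of 75 listed (24%), against 45 of 261 (17.2%) of the others.

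Clusters also showed how a summit falls between neighbours. Y105C5B.t3 and Y105C5B.t2 are glutamate genes of anticodon TTC that point away from each other, 120 bp apart, in an intron of srv-16, a chemoreceptor gene. Their common summit lay between them, at -68 bp from Y105C5B.t3 and at -53 bp from Y105C5B.t2, with a signal of 135.8. By contrast T09B4.t2 and T09B4.t1, isoleucine genes 646 bp apart, had a listed summit each, with signals of 98.5 and 99.49 at -13 and 2 bp.

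The autosomes did not differ beyond their intervals. Chromosome IV had the highest share, 18 of 71 genes (25.4%, 15.8 to 37.1%), and II the lowest, 8 of 57 (14%, 6.26 to 25.8%). Chromosome II had at the same time the largest share of genes with a candidate, 82.5%. Chromosomes I, III and V had 11 of 66, 14 of 64 and 12 of 78 listed.

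The strongest peaks lay at valine and lysine genes. F58D5.t1, a valine gene with anticodon AAC at I:12065865-12065937 in intergenic sequence, had the highest signal of the larger set among tRNA genes, 144.5 with an IDR of 0.000108. Its summit was at -6 bp, and it was listed in replicate 1 with a signal of 71.18 and in replicate 2 with 67.65. K08E7.t1, a lysine gene with anticodon CTT at IV:12594740-12594812, lies in an intron of pgp-1, which encodes a membrane transporter. It had 138.2 in the larger set, 61.94 in replicate 1 and 72.53 in replicate 2, the highest of all listed tRNA genes there, with summits at 10, 33 and 10 bp. Both genes were high in both replicates.

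Other strong peaks rested mainly on replicate 1. K04C2.t3 (III:6887728-6887800), in an intron of brd-1, whose product is a partner of the BRCA1 DNA repair protein, had 142.4 in the larger set. Its replicate 1 signal of 91.02 was listed and its replicate 2 signal of 53.74 was not, at an IDR of 0.114. T23F1.t1 (V:15465086-15465158) likewise had 93.77 in replicate 1, the highest of all tRNA genes in that replicate, and 57.84 in replicate 2 with an IDR of 0.211. At F44A2.t1 (V:9318202-9318273), the single-copy alanine gene shown above, the signals were 121.5 in the larger set, 83.88 in replicate 1 and 36.47 in replicate 2, where the IDR was 0.384. It lies 38 bp from the start of a protein-coding gene. Of the replicates, only replicate 1 listed these 3 genes. The replicate 2 signals of K04C2.t3 and T23F1.t1 were still above that of M01E5.t1 (50.59), which replicate 2 listed. That of F44A2.t1 was below it.

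The 10 genes listed in the larger set and both replicates rested on 8 peaks, and 4 of the genes are lysine genes. Besides those above they include ZK994.t2 (V:8499564-8499636), in an intron of the peroxidasin gene pxn-1, with signals of 118.5, 59.4 and 61.56 in the larger set, replicate 1 and replicate 2. W09D6.t2 (III:11066848-11066919), in an intron of the spindle assembly gene rsa-2, had 121.5, 72.9 and 41.39. F15D3.t1 (I:11579706-11579778) had 118.2, 66.62 and 54.28, and M01E5.t1 (I:13297673-13297745) had 105, 57.68 and 50.59. Both of the last are intergenic lysine genes with anticodon CTT. The single-copy leucine gene C14B9.t2 (III:8109603-8109724) had 114, 66.34 and 48.03. A listing in both replicates was thus not limited to genes whose full sequence is repeated. This gene is not free of repeated sequence, however. The percentage of repeated words around it, counted as above, was 21.43%, against a median of 23.1% in listed genes.

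Listings in 1 replicate were more common than in both. Among the 63 genes, 23 were also listed in replicate 1 but not in replicate 2, 5 in replicate 2 but not in replicate 1, and 25 in neither. Those 25 had median signals of 51.31 in replicate 1 and 39.16 in replicate 2, with median IDR values of 0.0581 and 0.364. Replicate 1 alone listed 7 genes that the larger set did not, and replicate 2 alone 1 gene, ZK262.t1. The strongest of the 7 was the threonine gene F52C9.t1, with 114.1 and an IDR of 0.0174 in the larger set and 77.79 against 32.83 in the replicates. These counts leave out the conservative set, which listed some of the 7 and not others. It listed F52C9.t1, at an IDR of 0.00298, but not F47G6.t1 (0.0512).

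Genes listed in the larger set were higher in both replicates than the rest, with overlap. In replicate 1 their signals ran from 29.18 through a median of 57.99 to 93.77, and those of 205 unlisted genes from 18.88 through 33.98 to 77.79. In replicate 2 the values were 25.01, 39.94 and 72.53 against 13.26, 24.66 and 66.23 for 208 unlisted genes. Because the larger set draws on the same replicates, this describes the listing and is not a separate result. Over the 242 genes with a candidate in both, Pearson's r of the log2 signals was 0.418 and Spearman's rho 0.400, as a description across genes that share libraries and in part sequence.

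**Figure D5:**
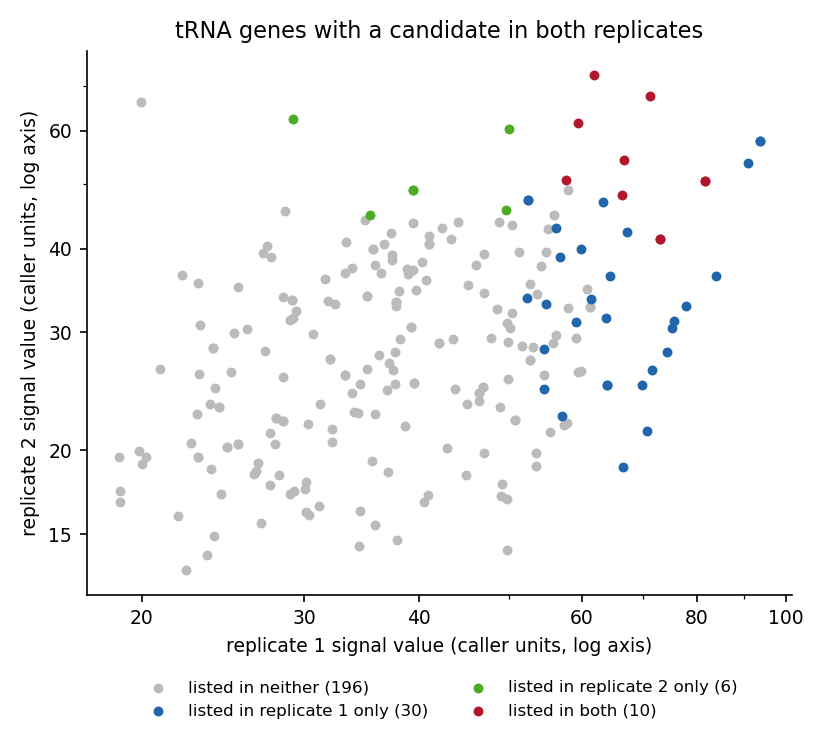
Signal value in replicate 1 against replicate 2 (both log axes, units of the authors' caller) for the 242 tRNA genes with a candidate in both. Genes listed in both (10, red) lie towards the upper right, those listed in replicate 1 only (30, blue) to the right and those in replicate 2 only (6, green) at the top; r of the log2 values is 0.418.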

How the data were processed

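The labels describe 1 group of 2 biological replicates. The deposited lists hold, per the labels, ranked candidates and thresholded peaks on ce11 for each replicate and for 2 sets drawn from both. The signal value is a score the authors deposited, with no scale shared between lists, and a second deposited score encodes the IDR. The ranked lists give the −log10 of the IDR as deposited by the authors. The authors deposited each summit as its distance in bp from the start of the peak. The sources used here do not name the aligner, peak caller, IDR tool or read filters. Peak lists carry no depth, so precision is limited by the number of genes and peaks.

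Genes came from Ensembl release 115 and isotypes and sequences from RefSeq. A gene counted as listed where a summit of the thresholded list lay within 500 bp. Its values are those of the strongest listed candidate in the window or, with none listed, of the strongest candidate. An intron gene lies wholly in an intron of a protein-coding gene on either strand. Copies were full-length matches on both strands of the nuclear genome. Shares have 95% Clopper-Pearson intervals, and no test between groups was made. The scoring was tested on simulated summits planted inside tRNA genes, and in 20 of 20 runs all 60 planted genes were recovered. That run called genes without a window around them, so it did not test the 500 bp rule. Python 3.11.15, pandas 2.3.3 and scipy 1.17.1 were used.

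The genes named are the nearest ones to the 10 near-tRNA summits of the highest signal, up to 10 genes listed in the larger set and both replicates, and those of the 3 candidates just outside the threshold, of which 1 is not reported here; others were picked after their values were seen to illustrate families, clusters and isotypes. The members and lists were chosen with earlier results of these data known, as was the form of the A box. Alternatives were windows of 200 and 1000 bp, peak overlap, the conservative set, an IDR of 0.001, either replicate alone, the nearest gene only, other cluster distances, other definitions of a copy, and hosts on the same strand.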

Additional observations from a re-analysis of the deposited data

How the results depend on the processing

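The stricter IDR of 0.001 and the use of a single replicate changed the counts most, since both list fewer peaks. At an IDR of 0.001 the number of listed genes was 27 and of genes listed in both replicates 0, and 10.39% of near-tRNA candidates were listed. The listed shares were then 8.511% of intron, 7.914% of intergenic, 10.17% of clustered, 6.881% of lone and 9.562% of multi-copy genes, and the median summit stood at 13 bp. With either replicate left out the listed genes ranged from 16 to 40, the listed near-tRNA candidates from 4.745% to 13.51%, summits inside the gene from 53.85% to 77.14% and the median summit from 10 to 19 bp. The listed shares ranged from 5.851% to 11.7% for intron, 3.597% to 12.95% for intergenic, 5.085% to 13.56% for clustered, 4.587% to 11.01% for lone, 2.353% to 4.706% for single-copy and 5.578% to 14.34% for multi-copy genes. A window of 1000 bp gave 33.9% of clustered genes. With 50 bp of flank every gene counted as single-copy, at 18.75% listed, so no multi-copy value exists. Of 92 alternatives of the main results 64 left the value within its interval or spread or, for counts of genes, within a fixed ratio of the main count. Intergenic genes had a higher listed share than intron genes in the larger set, and this order reversed with the conservative set (18.71% against 20.74%), at an IDR of 0.001 and in replicate 2 alone. Clustered and lone genes were at 17.8% and 16.06% with each summit given to its nearest gene only. The definition of a copy without 5 bases at each end was chosen after seeing the data and changed neither share beyond its interval. The listed share of threonine genes was 0% with a 200 bp window or peak overlap, as the summit of the 1 listed gene lies beyond both.

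No paired analysis was possible because the replicates form a single group and no result comes from a test. The read depth is unknown and its part in the counts was not tested. A gene without a listed summit is not one without a summit, as 172 such genes had a ranked candidate. Neighbouring and identical genes are not independent, which the intervals leave out.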

Other observations

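The longer form of the B box was found within 50 bp of 6 of the 340 listed autosomal summits that lie away from annotated tRNA genes. The strongest was the peak at V:12303518-12303777 in frm-7, with a signal of 195.4, which has the small nucleolar RNA gene C51F7.4 at its summit. Next came II:11960710-11960969, with 178.1, within 500 bp of the small nucleolar RNA gene W03C9.9 and 1393 bp from the nearest tRNA gene. IV:11026045-11026304, with 135.7, has the non-coding RNA gene F36H1.17 at its summit. I:2410007-2410266, with 133.2, is within 500 bp of the small nucleolar RNA gene Y39G10AR.24, and V:19643072-19643331, with 76.22, within 500 bp of Y43F8C.22, of the same kind. The last, IV:14838202-14838461, with 90.83, lies in Y57G11C.22 with no short RNA gene within 500 bp. Of the 7700 other unlisted candidates, 39 held it.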
